A study of Mus musculus with 6 samples.

Results

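The genes examined here encode enzymes that make serine and pass its carbon to folate: Phgdh, Psat1, Psph, Shmt2, Mthfd2, Mthfd1l, Mthfd1 and Tyms. They were chosen by symbol from 23415 entries of the gene tables, after Shmt2 and Mthfd2 had been seen to stand lower in cells lacking NLRP3 at day 3. All 8 symbols had 1 entry each. RNA was sequenced from CD4 T cells of 7-week-old C57/Bl6j mice, taken from spleen and nodes, of genotype NLRP3 KO (NLRP3KO) or wild-type (WT). NLRP3 is the sensor protein of an inflammasome. The groups were NLRP3KO and WT naive cells, NLRP3KO and WT cells after 3 days of T helper type 2 (Th2) culture, and NLRP3KO and WT cells after 6 days of it. Culture was the same for both genotypes: CD3 and CD28 antibodies coated on the plate, 10 ng/ml of IL-4, and IFN gamma blocked with an antibody. Each group was 1 library. The labels give neither the NLRP3 allele nor how many mice a library came from.

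Serine is made from a glycolytic intermediate in a pathway of 3 steps, carried out by Phgdh, Psat1 and Psph. Shmt2, Mthfd2 and Mthfd1l then act in mitochondria, where serine is split to glycine and its carbon is carried by folate and released as formate. In the cytosol Mthfd1 loads formate back onto folate for purine synthesis, and Tyms uses a folate-bound carbon to make thymidylate for DNA. T cells are known to raise this pathway when they are activated and begin to divide.

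Promoter sequences are shown for Shmt2 and Mthfd2, the pair whose values led to the list, and for Tyms, the only member whose window held a searched motif. The windows come from RefSeq on GRCm38.p6, run from 250 bases before to 50 bases after the annotated start, and are written along the strand of the gene, which is the minus strand for all of them. Shmt2 is at chr10:127522395-127522694, Mthfd2 at chr6:83317555-83317854 and Tyms at chr5:30073576-30073875. Capitals mark the motif CACGTG, the E-box bound by Myc with Max.
Shmt2: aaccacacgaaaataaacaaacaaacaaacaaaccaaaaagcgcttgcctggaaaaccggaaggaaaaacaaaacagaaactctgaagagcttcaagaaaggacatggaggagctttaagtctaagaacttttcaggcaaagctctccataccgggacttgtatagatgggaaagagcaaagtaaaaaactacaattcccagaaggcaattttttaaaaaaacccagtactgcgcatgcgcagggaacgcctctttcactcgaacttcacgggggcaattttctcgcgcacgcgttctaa
Mthfd2: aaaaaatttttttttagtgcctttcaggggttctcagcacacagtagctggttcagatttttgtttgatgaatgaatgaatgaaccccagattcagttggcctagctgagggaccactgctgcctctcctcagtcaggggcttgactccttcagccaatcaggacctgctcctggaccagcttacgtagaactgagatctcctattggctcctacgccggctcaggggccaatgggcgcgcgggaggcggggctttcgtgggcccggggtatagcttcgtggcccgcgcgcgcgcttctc
Tyms: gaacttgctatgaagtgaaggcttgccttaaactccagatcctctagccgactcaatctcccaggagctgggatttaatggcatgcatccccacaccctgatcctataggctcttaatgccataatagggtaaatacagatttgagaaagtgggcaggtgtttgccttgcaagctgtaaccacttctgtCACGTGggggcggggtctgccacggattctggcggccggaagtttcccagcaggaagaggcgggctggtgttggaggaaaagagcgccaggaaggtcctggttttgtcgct
The E-box of Tyms began at position -61, counted from the annotated start. On either strand, CACGTG was in 1 of the 9 windows of the 8 genes (Psat1 has 2 windows) and in 7.15% of all 32851 windows. The other motif searched, TGATGNAA, which resembles the site of the amino acid response, was in 0 of the 9 windows and in 3.97% of all windows. A missing match says only that these letters are not in the window. The GC content was 42.7% for Shmt2, 55.7% for Mthfd2 and 53.0% for Tyms, against a median of 52.7% over all windows.

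Depth differed widely between libraries. The deposited values are FPKM, fragments divided by transcript length and by library size, each with a lower and an upper bound. Low FPKM came in steps of 1 fragment, from which fragment numbers per gene were estimated. The totals on genes were about 1192716 (NLRP3KO) and 1395676 (WT) in naive cells, 23019 (NLRP3KO) and 26945 (WT) at day 3, and 5019 (NLRP3KO) and 27929 (WT) at day 6. The 8 genes together held 588 and 613 fragments in NLRP3KO and WT naive cells, 27 and 72 at day 3, and 4 and 73 at day 6. The 5 T cell markers were all above 0 in both naive libraries and in both WT Th2 libraries, while 4 were in NLRP3KO at day 3 and 3 at day 6. Markers of CD8 T cells, myeloid cells, NK cells and red cells were at 0 in the Th2 libraries, and 1 of 4 B cell markers was above 0 in WT at day 3, at a summed FPKM of 1.57. Libraries from naive cells were made from purified mRNA and Th2 libraries from RNA depleted of rRNA, so time in culture and RNA selection cannot be told apart.

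In naive cells each of the 8 genes was within 2-fold between genotypes after scaling. Shmt2 had an FPKM of 12.1 (bounds 9.38 to 14.8) in NLRP3KO and 8.63 (6.68 to 10.5) in WT. Mthfd2 had 16.7 in NLRP3KO and 13.6 in WT and was the highest of the 8 in both. Tyms, at 1.07 in NLRP3KO and 1.09 in WT, was the lowest in both. The other 5 lay between 9.88 and 12.5 FPKM in NLRP3KO and between 5.70 and 9.66 in WT. Deposited FPKM stood higher in NLRP3KO over most genes, by a median of 0.37 on the log2 scale, and libraries were therefore scaled to each other. After scaling, 0 of the 8 genes were at least 2-fold lower and 0 at least 2-fold higher in NLRP3KO, with 2.32% and 0.21% of 9985 genes so called. Their median log2 difference was -0.02, against 0.01 over all genes. A 2-fold difference with bounds that did not overlap was seen in 0 of the 8, with 1.8% of all genes so called lower and 0.0701% higher. The 95% counting interval of each ratio included 1, from 0.733 (0.322 to 1.61) for Tyms to 1.37 (0.939 to 2.02) for Psat1. Over all 8 genes the ratio was 1.05 (0.940 to 1.18). Such intervals compare the fragments of 2 libraries, cover counting error only, and say nothing of the spread between animals. Markers of other cells were present in naive libraries. The 4 B cell markers, all above 0, summed to 33.0 FPKM in NLRP3KO and 74.2 in WT, and CD8 markers (2 of 2 above 0) to 15.7 and 16.1. Myeloid markers, of which 4 of 5 were above 0 in NLRP3KO and 5 of 5 in WT, summed to 19.4 and 14.5. NK markers, with 2 of 3 above 0, summed to 0.644 and 1.77, and the 1 red cell gene with an entry had 59.3 and 47.8. Their part in these values was not tested. In bulk samples, fewer cells of a type and less RNA per cell cannot be told apart.

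**Figure D1:**
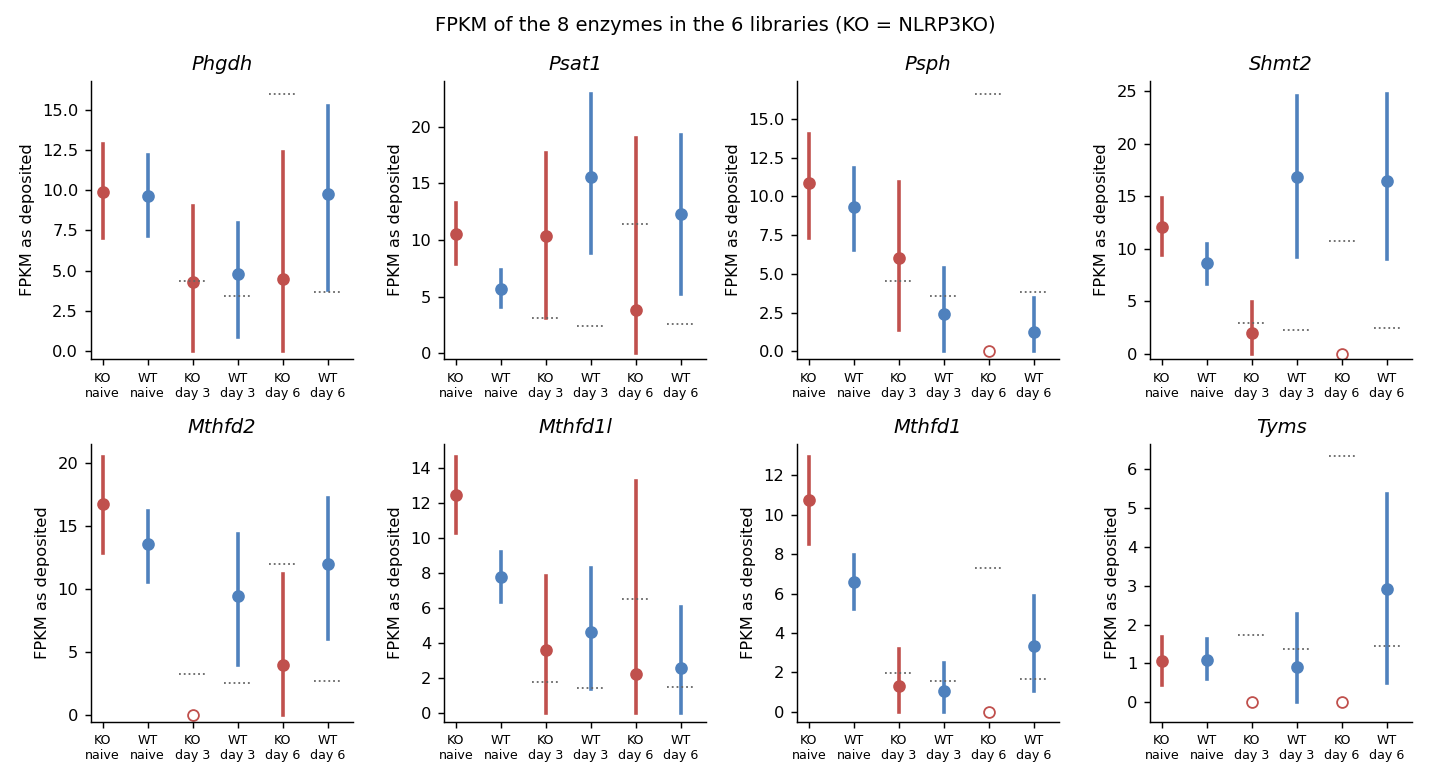
Each panel shows 1 gene, with the deposited FPKM (points) and its bounds (bars) for NLRP3KO (red) and WT (blue) libraries of naive cells and of Th2 days 3 and 6. Open points are genes listed at 0, and dotted lines mark the FPKM that 3 fragments would give. Shmt2 is at 16.9 and 16.5 in the WT Th2 libraries, above both NLRP3KO Th2 libraries, and the dotted lines are highest in NLRP3KO at day 6.

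At day 3 Shmt2 and Mthfd2, both mitochondrial, stood lower in NLRP3KO than in WT, while the bounds of every other member above 0 in both libraries overlapped. This contrast led to the choice of the genes, so its values are a description. Shmt2, the mitochondrial serine hydroxymethyltransferase (mm9 chromosome 10, 126954179 to 126959500), had an FPKM of 1.95 (bounds 0 to 4.89) in NLRP3KO and 16.9 (9.20 to 24.5) in WT. These values rest on 2 and 22 fragments. The ratio after scaling was 0.102 (0.0116 to 0.415), and Shmt2 was the only member above 0 in both libraries whose bounds did not overlap. Bounds apart in this direction, with a 2-fold difference, were seen in 0.557% of 5749 genes, and in 0.818% in the other direction, where 0 members had them. Mthfd2, the mitochondrial methylene-tetrahydrofolate dehydrogenase and cyclohydrolase (chromosome 6, 83255698 to 83267598), was listed at 0 in NLRP3KO and had 9.46 (4.0 to 14.4) in WT, from 0 and 11 fragments. The FPKM that 3 fragments on Mthfd2 would give in NLRP3KO was 3.28, below the WT lower bound. Mthfd1l, which releases formate in mitochondria (chromosome 10, 6179460 to 6373466), had 3.63 (0 to 7.85) in NLRP3KO and 4.62 (1.39 to 8.31) in WT, with overlapping bounds.

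Of the serine synthesis genes, Psat1, the phosphoserine aminotransferase (chromosome 19, 15979613 to 15999549), had 10.4 FPKM (3.11 to 17.6) in NLRP3KO and 15.5 (8.89 to 22.9) in WT. Its 10 and 19 fragments gave a ratio of 0.59 (0.245 to 1.33), so a difference in either direction was within counting error. Phgdh, the dehydrogenase of the first step (chromosome 3, 98117094 to 98143892), had 4.27 in NLRP3KO and 4.80 in WT. Psph, the phosphatase of the last step (chromosome 5, 130271434 to 130293129), stood the other way, at 6.05 (1.37 to 10.9) in NLRP3KO and 2.38 (0 to 5.38) in WT, from 4 and 2 fragments. The bounds of all 3 genes overlapped between genotypes. In the cytosolic arm, Mthfd1 (chromosome 12, 77356219 to 77420807) had 1.32 in NLRP3KO and 1.04 in WT, from 2 fragments each. Tyms (chromosome 5, 30384740 to 30400165), whose reads may be shared with the copy Tyms-ps, was listed at 0 in NLRP3KO and had 0.905 in WT, from 2 fragments, which is below the 3 fragments taken as the limit of detection, so no difference could be measured.

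Of the 8 genes, 7 had an FPKM of at least 1 in 1 of the day 3 libraries. Of these, 2 were at least 2-fold lower in NLRP3KO and 1 at least 2-fold higher, where 27.2% and 25.4% of all 5749 genes were so called. The median log2 difference was -0.47, against 0.11 over all genes. Pooled, the 8 genes had a ratio of 0.42 (0.260 to 0.663). The 2 lower genes, Shmt2 and Mthfd2, led to the list, so the pooled ratio that holds them is a description only. Without Shmt2 and Mthfd2 it was 0.719 (0.417 to 1.22), on 25 and 39 fragments, an interval that includes 1.

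**Figure D2:**
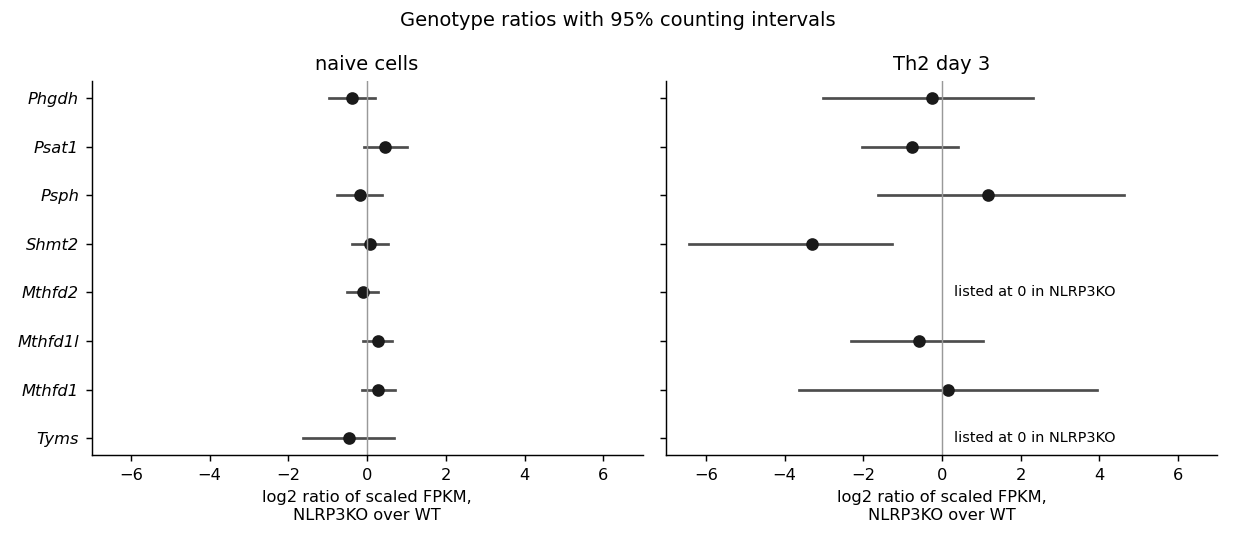
Points are log2 ratios of scaled FPKM, NLRP3KO over WT, from fragment numbers, for naive cells and Th2 day 3, and bars are 95% counting intervals. Intervals for naive cells all cross 0, and at day 3 that of Shmt2 lies wholly below 0. Genes listed at 0 in NLRP3KO carry no ratio.

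The make-up of the 8 genes within a library does not depend on scaling between libraries. Shmt2 accounted for 7.07% of their summed FPKM in NLRP3KO and 30.3% in WT at day 3, and for 14.3% in NLRP3KO and 13.8% in WT naive cells. The mitochondrial genes Shmt2, Mthfd2 and Mthfd1l made up 20.2% in NLRP3KO and 55.7% in WT at day 3, from 8 and 43 fragments. The serine synthesis genes made up 75% in NLRP3KO and 40.8% in WT, from 17 and 25 fragments. Their summed FPKM was 20.7 in NLRP3KO and 22.7 in WT. These day 3 shares follow from the values of Shmt2 and Mthfd2 that led to the list, and the third mitochondrial gene, Mthfd1l, had 6 fragments in NLRP3KO and 10 in WT. In naive cells both arms had close shares in the genotypes, with the mitochondrial genes at 49.0% in NLRP3KO and 48.1% in WT. Per 1000000 fragments on genes, the mitochondrial genes had 348 (95% Poisson interval 150 to 685) in NLRP3KO and 1596 (1155 to 2150) in WT at day 3. These values, too, hold Shmt2 and Mthfd2 and only describe the contrast that led to the list. The serine synthesis genes had 739 (430 to 1182) in NLRP3KO and 928 (600 to 1370) in WT. Phgdh and Mthfd1l enter these sums with fragment numbers that did not come out whole.

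**Figure D3:**
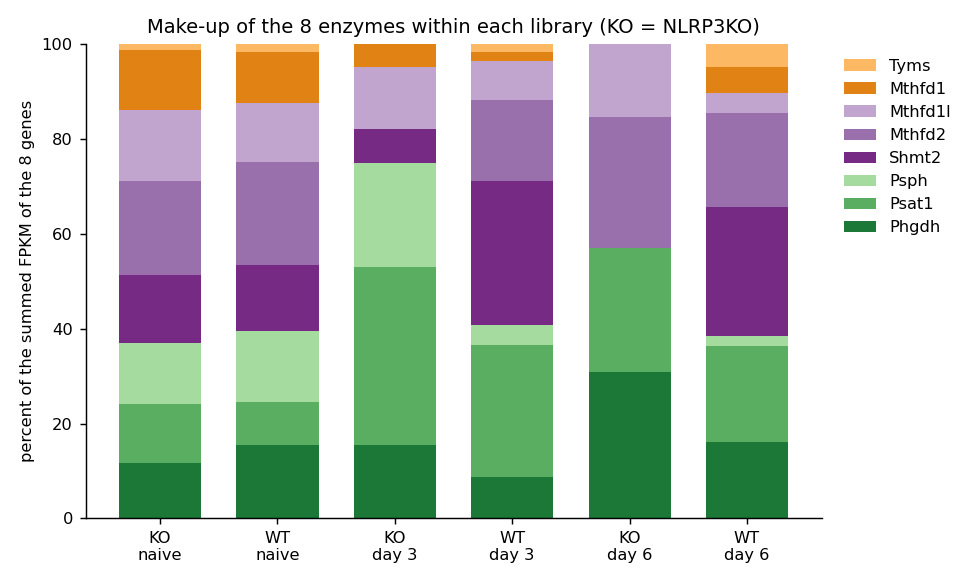
Bars give each gene's percent of the summed deposited FPKM of the 8 genes within each library, with serine synthesis genes in green, mitochondrial folate genes in purple, and Mthfd1 and Tyms in orange. At day 3 the green part is 75% in NLRP3KO and 40.8% in WT. The NLRP3KO day 6 bar rests on 4 fragments.

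At day 6 the NLRP3KO library was too shallow to measure most of the genes. Shmt2 was listed at 0 in NLRP3KO and had 16.5 FPKM (9.07 to 24.7) in WT, from 0 and 20 fragments. On Shmt2, 3 fragments would have given 10.7 in NLRP3KO, below the WT value but within its bounds. Mthfd2 had 4.01 (0 to 11.2) in NLRP3KO and 12.0 (6.01 to 17.2) in WT, from 1 and 13 fragments, a ratio of 0.297 (0.00698 to 1.98). Psat1 had 3.81 (0 to 19.0) in NLRP3KO and 12.3 (5.25 to 19.3) in WT, from 1 and 14 fragments, a ratio of 0.276 (0.00652 to 1.81). Both ratios thus had intervals that included 1. Phgdh had 4.47 in NLRP3KO and 9.76 in WT, and Mthfd1l 2.22 in NLRP3KO and 2.55 in WT. Mthfd1, Tyms and Psph were listed at 0 in NLRP3KO and had 3.35, 2.91 and 1.27 in WT, all below what 3 fragments would give in NLRP3KO (7.28, 6.33 and 16.6). Ppia and Hprt, which cells use throughout, were also listed at 0 in that library.

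All 8 genes lay lower in NLRP3KO at day 6, 7 of them at least 2-fold, but 53.8% of all 5336 genes were so called, and 20.9% were called higher. The median log2 difference of the 8 was -1.72, against -1.52 over all genes, of which 59.2% were listed at 0 in 1 of the libraries. Over the 2178 genes above 0 in both libraries the median was 0.33, where the 4 members above 0 in both had -0.30 (Mthfd1l), -1.19 (Phgdh), -1.61 (Mthfd2) and -1.70 (Psat1), each on 1 fragment in NLRP3KO. With 1 fragment there, the sign of each of these differences followed from the WT level. The median of 0.33 holds only genes that the shallow NLRP3KO library happened to catch, so no conclusion is drawn from setting them side by side. With an FPKM minimum of 5 the 4 members left had a median of -1.66, against -0.35 over all genes. All 4 reached that minimum only in WT, so the filter itself set the sign of their median. The median over all genes also includes genes that reached it only in NLRP3KO, so these medians are not a like comparison. With zeros placed at 3 fragments the median of the 8 was -0.53. Pooled, 4 and 73 fragments gave a ratio of 0.211 (0.0561 to 0.565). Without Shmt2 and Mthfd2 it was 0.289 (0.0573 to 0.909), from 3 and 40 fragments. Both pooled ratios depend on the scaling factors, whose genes had to be seen in every library, the shallow NLRP3KO one included. Their intervals are not given for another scaling, so the upper end of 0.909 is not read as a difference. Per 1000000 fragments on genes the 8 genes had 797 (217 to 2040) in NLRP3KO and 2614 (2049 to 3286) in WT. These counting intervals did not overlap, with 2040 and 2049 as their nearest ends. Without Shmt2 and Mthfd2 the values were 598 (123 to 1747) in NLRP3KO and 1432 (1023 to 1950) in WT, with overlapping intervals. For members above 0 in both libraries, 0 had bounds apart, with 0.581% of all genes so called lower and 0.169% higher.

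Between days 6 and 3 the WT libraries differed little in the summed level of the 8 genes. Shmt2 was 16.5 at day 6 and 16.9 at day 3, and Mthfd2 12.0 at day 6 and 9.46 at day 3. Phgdh was 9.76 at day 6 and 4.80 at day 3, and Mthfd1 3.35 at day 6 and 1.04 at day 3, with overlapping bounds. Tyms was 2.91 at day 6 and 0.905 at day 3, from 6 and 2 fragments. Over all 8 genes the ratio was 0.985 (0.701 to 1.38), from 73 fragments at day 6 and 72 at day 3. Of the 8, 2 (Mthfd1 and Tyms) were at least 2-fold higher at day 6 and 0 lower, with 24.1% and 20.2% of 5592 genes so called. Bounds of 0 members were apart, with 0.161% of genes so called higher and 0.304% lower. In NLRP3KO 4 of 7 were at least 2-fold lower at day 6 and 1 higher, with 51.8% and 21% of 5207 genes so called, and the pooled ratio was 0.495 (0.126 to 1.42). There too 0 members had bounds apart, with 0.25% of genes so called lower and 0.0576% higher.

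Set against naive cells, Shmt2 and Psat1 stood highest among the 8 in WT culture. As deposited, Shmt2 was 1.95 times and Psat1 2.72 times as high in WT at day 3 as in WT naive cells. After scaling the ratios were 12.0 (7.17 to 19.4) and 16.8 (9.38 to 28.9), since most genes had lower FPKM in Th2 libraries (a median log2 difference of -1.91 as deposited over genes above 0 in both). The place of Shmt2 in the order of FPKM within a library needs no scaling, but naive and Th2 libraries still differ in depth and RNA selection. Genes above 0 numbered 12570 in NLRP3KO and 12875 in WT naive cells, and 6369 in NLRP3KO and 6746 in WT at day 3. Among 23415 entries it was 3665 in NLRP3KO and 3808 in WT naive cells, and 2450 in NLRP3KO and 169 in WT at day 3. In WT at day 6 it was 231. For Mthfd1 the ratio was 0.158 as deposited and 0.968 (0.116 to 3.59) after scaling, on 2 fragments at day 3, so a change in either direction could not be measured. Of the 8 genes, 6 were at least 2-fold higher in WT at day 3 than in WT naive cells and 0 lower, with 9.99% and 31.3% of 9562 genes so called. For 3 of them, Shmt2, Psat1 and Mthfd2, the scaled bounds were also apart, with 2.93% of genes so called higher and 5.77% lower. The WT day 3 values of Shmt2 and Mthfd2 were among those that led to the list. Their calls in both counts are therefore a description only. As deposited, only Shmt2 and Psat1 of these 6 were higher, and the median over the 8 was -0.56 in place of 1.45. In NLRP3KO, 3 were at least 2-fold higher at day 3 than in naive cells and 1 lower, with 10.8% and 32.1% of 10048 genes so called. Bounds of 1 member, Psat1, were apart, with 2.56% of genes so called higher and 5.11% lower. Psat1 was among the 3 higher genes, with a scaled ratio of 7.22 (3.31 to 14.1), and Shmt2 was not, at 1.17 (0.140 to 4.38). As deposited, 0 of these 3 were higher. The NLRP3KO day 3 value of Shmt2 led to the list, so its ratio and place there only describe that choice. It rests on 2 fragments, and its FPKM of 1.95 was below the 2.93 that 3 fragments would give. Both day 3 comparisons use the naive library of their own genotype, and the difference between the genotypes was not tested, since there were no replicates.

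Neighbouring pathways were described through lists of genes at day 3, to be read against the 27.2% of all genes at least 2-fold lower in NLRP3KO, the 25.4% higher and the median of 0.11. Of 8 transporter genes of serine and other neutral amino acids with an FPKM of at least 1, 4 were at least 2-fold lower in NLRP3KO and 0 higher (median log2 difference -1.22, or -0.57 over the 7 above 0 in both libraries). Slc7a5, the light chain of a transporter of large neutral amino acids, had 0.625 FPKM (0 to 1.80) in NLRP3KO and 6.88 (3.77 to 10.4) in WT, a log2 difference of -2.82 with bounds apart. Its heavy chain partner Slc3a2 had 1.73 (0 to 5.99) in NLRP3KO and 7.98 (3.23 to 12.7) in WT. In the list of ATF4 and the amino acid response, 7 of 11 were at least 2-fold lower and 2 higher (median -1.79), beside the same 27.2% and 25.4% of all genes. Of the 11, 5 were listed at 0 in NLRP3KO, and over the 5 above 0 in both libraries the median was -0.54. Bounds were apart, with a 2-fold difference, for 0 of the 11 lower in NLRP3KO and for 1 higher. Over all genes 0.557% and 0.818% were so called. Asns, which makes asparagine, had 1.18 (0 to 3.28) in NLRP3KO and 7.43 (2.58 to 12.0) in WT. Atf5, a transcription factor induced in the amino acid response, was listed at 0 (upper bound 3.64) in NLRP3KO and had 8.75 in WT. Ddit4, an inhibitor of mTORC1 induced by stress, stood the other way with bounds apart, at 21.9 (12.5 to 32.5) in NLRP3KO and 6.45 (1.96 to 10.8) in WT. Atf4, the transcription factor that drives serine synthesis genes under amino acid shortage, had 84.7 in NLRP3KO and 48.0 in WT naive cells, 7.99 in NLRP3KO and 10.5 in WT at day 3, and 4.89 in NLRP3KO and 29.2 in WT at day 6. Myc had 25.3 in NLRP3KO and 13.6 in WT naive cells, 6.53 in NLRP3KO and 12.5 in WT at day 3, and 0 in NLRP3KO and 10.2 in WT at day 6. The NLRP3KO day 6 value of Atf4 (bounds 0 to 13.4) rests on about 0.8 fragments. It was below the 18.1 that 3 fragments would give there, and the WT bounds were 18.6 to 40.2. The 0 of Myc comes from the same shallow library.

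The counts of the next lists, too, stand beside 27.2% lower and 25.4% higher over all genes. Among the other folate and one-carbon genes, 4 of 16 reached an FPKM of 1 at day 3, of which 2 were at least 2-fold lower in NLRP3KO and 1 higher (median -0.88). Of these 4, 3 were listed at 0 in 1 of the libraries, and the 1 above 0 in both, Mtr, had a log2 difference of 0.13. The cytosolic paralog Shmt1 had 0 in NLRP3KO and 0.863 in WT. Mthfd2l, the paralog of Mthfd2, was listed at 0 in all 4 Th2 libraries. Of the genes that use serine and glycine, 2 of 6 were lower and 1 higher (median -0.46), with Mat2a, which makes S-adenosylmethionine, at 3.16 in NLRP3KO and 6.23 in WT. Purine synthesis genes had 4 of 14 lower and 3 higher (median -0.45), near the shares over all genes, and Hprt, which salvages purines, had 8.74 in NLRP3KO and 2.06 in WT. Pyrimidine and deoxynucleotide genes had 4 of 11 lower and 2 higher (median -0.76), with Dut, which removes dUTP, at 1.90 in NLRP3KO and 6.25 in WT. The nucleoside diphosphate kinase genes Nme1 and Nme2 are near-identical and their values are uncertain.

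Most markers of S phase and replication had lower values in NLRP3KO at day 3. Of 13 with an FPKM of at least 1 at day 3, 8 were at least 2-fold lower in NLRP3KO and 0 higher, beside 27.2% and 25.4% of all genes, with a median log2 difference of -1.10. Bounds were apart, with a 2-fold difference, for 1 of the 13, lower in NLRP3KO, and for 0 in the other direction. Over all genes 0.557% and 0.818% were so called. The replicative helicase genes Mcm5, Mcm3 and Mcm4 had 1.93, 3.84 and 2.44 FPKM in NLRP3KO and 5.56, 8.46 and 5.29 in WT, with overlapping bounds. Top2a, Ccna2 and Gins2, named after their values were seen, were slightly higher in NLRP3KO, at 9.13, 3.95 and 2.51 FPKM, against 7.51, 3.11 and 1.98 in WT. The part of the list in the values of the 8 genes was not tested.

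**Figure D4:**
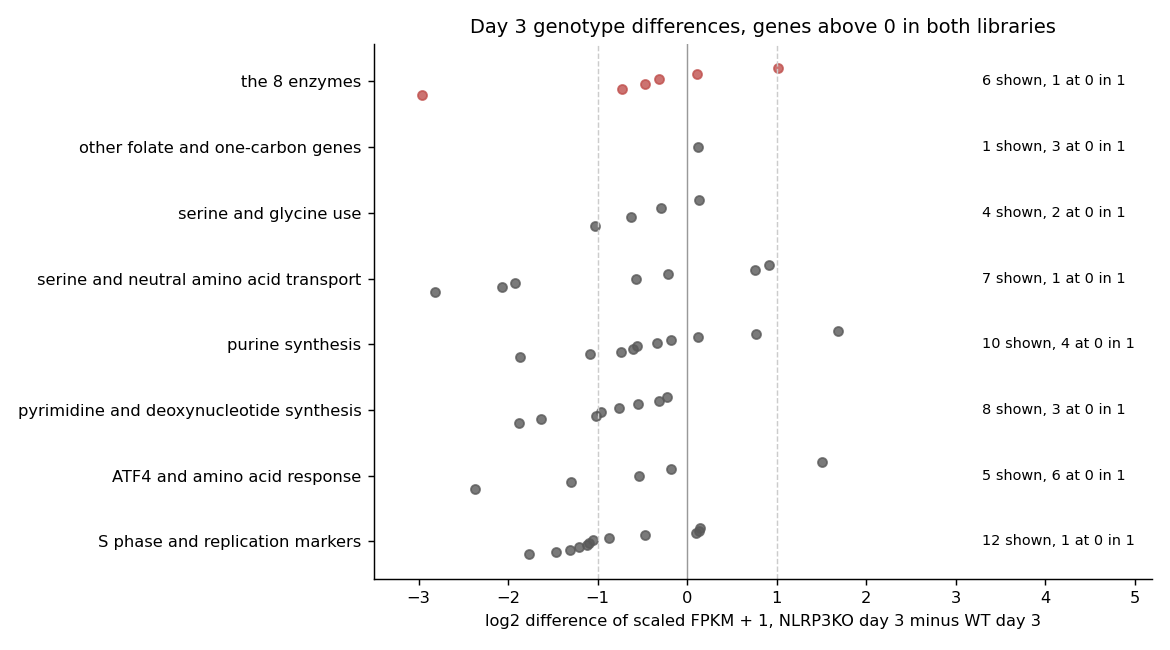
Each point is 1 gene, placed by the log2 difference of scaled FPKM + 1 between NLRP3KO and WT at day 3, for the 8 enzymes (red) and 7 lists of neighbouring genes (grey), with dashed lines at a 2-fold difference. Genes listed at 0 in 1 library are counted at the right and not drawn. Shmt2 is the lowest of the red points, at -2.97, and Psph the highest, at 1.02.

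At day 6 many genes of these lists were listed at 0 in NLRP3KO. Of those reaching 1 FPKM in either library, these were 6 of 7 transporter genes, 8 of 10 pyrimidine and deoxynucleotide genes, 8 of 13 replication markers, 5 of 10 genes of the ATF4 list and 4 of 11 purine synthesis genes, beside 49.7% of all 5336 genes. Slc7a5 and Slc3a2 were listed at 0 in NLRP3KO and had 7.91 and 9.51 FPKM in WT. On Slc7a5, 3 fragments would have given 6.47 in NLRP3KO, below the WT value, and on Slc3a2 10.1, above it. Of the genes named at day 6, Mat2b and Impdh2 stood the other way, with overlapping bounds. Mat2b had 13.5 in NLRP3KO and 1.04 in WT, and Impdh2 10.4 in NLRP3KO and 2.40 in WT. Both NLRP3KO values were below what 3 fragments would give there (14.2 and 12.1).

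The genes whose pattern over the 6 libraries lay closest to the summed level of the 8 were Ndfip1, Mki67, Gars, Rrm2 and Cdv3, among 5656 genes reaching 5 FPKM in 2 or more libraries. Their mean absolute distance on the centred log2 scale was 0.31 for Ndfip1, 0.35 for Mki67, 0.36 for Gars, 0.37 for Rrm2 and 0.38 for Cdv3. Ndfip1, an adaptor of ubiquitin ligases, had 26.6 FPKM in NLRP3KO and 29.3 in WT at day 3. Mki67, a protein of dividing cells, had 5.08 FPKM in NLRP3KO and 9.83 in WT at day 3. Rrm2, a subunit of ribonucleotide reductase, had 4.14 in NLRP3KO and 6.51 in WT, and Gars, the glycyl-tRNA synthetase gene, 3.75 in NLRP3KO and 9.59 in WT. Among the 8 genes, Phgdh lay closest to their sum (0.37) and Psph farthest (1.15).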

How the data were processed

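RNA of 6 libraries, 1 per group, was measured. The authors deposited, per the file headers, 1 gene table per library with the FPKM, its lower and upper bound and a status. TopHat, Cufflinks and mm9 are named in the submitters' processing notes (versions and annotation file: not given in the sources used here). Of 23700 entries, 285 with too little data were left out.

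FPKM were multiplied by median-ratio factors over 1059 genes with FPKM of at least 1 in all libraries (0.245 NLRP3KO and 0.328 WT naive, 1.78 and 2.02 day 3, 1.62 and 1.83 day 6). Differences are log2 of scaled FPKM + 1, over genes with FPKM of at least 1 in 1 of the 2 libraries. Medians and counts of calls include entries listed at 0. FPKM in the text are as deposited. With 1 library per group, no difference within a stage was tested and no p-value is given. A fit of genotype over all 6 libraries with stage as a block would leave 2 residual degrees of freedom, but includes the day 3 libraries that led to the list, and was not run. The step of 1 fragment on 1 kb, read from single-transcript genes (GENCODE M21 lengths less 140 bases), was 0.326, 0.222, 2.11, 1.66, 7.73 and 1.78 FPKM in the same order. A length for each gene was then fitted so that fragments were whole. They were within 0.05 (root mean square) for 6 of the 8 genes, and not for Mthfd1l (0.0958) and Phgdh (0.131). Intervals are exact binomial or Poisson, at 95%, and cover counting error only. The steps were run on simulated data built with the same lengths and the same rule for bounds, so recovery there was partly built in. On 825 single-transcript genes of the real data, the length implied by the bounds had a median of 1.12 times the annotated effective length. Python 3.11.15, numpy 2.4.6 and scipy 1.17.1 were used.

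The members, the lists and the rule for named genes were chosen with earlier results of these data known. From each list the rule named up to 4 genes at least 2-fold apart at day 3 and up to 2 at day 6, with FPKM of at least 5, largest difference first, and Atf4 and Myc. Some of these are given in counts only, and Shmt1 and Mthfd2l were added as paralogs.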

Additional observations from a re-analysis of the deposited data

How the results depend on the processing

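Each of the 7 comparisons was repeated with 4 or 5 other scalings, other pseudocounts and filters, zeros at 3 fragments and, chosen after seeing the data, without Shmt2 and Mthfd2. Of the medians over the members, 67 moved by less than the half-width of the pooled counting interval, some of those near 0 changing sign (such as WT day 6 against day 3, -0.02 with upper-quartile scaling and 0.01 as given). The day 3 genotype difference of Shmt2 ran from -3.25 to -2.20. That of Mthfd2, listed at 0 in NLRP3KO, has no fixed size: it was -7.58 and -2.27 with pseudocounts of 0.1 and 5, and -1.56 with NLRP3KO at 3 fragments. The other medians, and members whose sign turned, were as follows, and where no construction shows the cause, the cause was not tested.

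As deposited, the median was 0.36 for naive NLRP3KO against WT, -0.56 for WT day 3 against naive and -1.29 for NLRP3KO day 3 against naive, each with its sign turned. In WT day 3 against naive, Mthfd1l was then -0.64, Mthfd2 -0.48, Phgdh -0.88 and Tyms -0.13. In NLRP3KO day 3 against naive, Phgdh was -1.05, Psat1 -0.013 and Psph -0.76. The WT median against naive was 1.00 with upper-quartile scaling, and 1.95 and 0.88 with pseudocounts of 0.1 and 5. With an FPKM minimum of 5, which left 4 members (Shmt2, Mthfd2, Psat1 and Psph), the day 3 genotype median was -1.85. Shmt2 and Mthfd2 led to the list and reached that minimum only in WT, so this median only describes that choice. With zeros at 3 fragments the values turned where NLRP3KO was listed at 0. At day 6 against WT, Mthfd1 was 0.85, Psph 3.07 and Tyms 0.83. Mthfd2 was 0.42 in NLRP3KO day 3 against naive. In NLRP3KO day 6 against day 3 the median was 0.14, Shmt2 2.04, Mthfd1 1.93 and Psph 1.25.

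Within a stage there is 1 library per genotype, and no library was paired or left out there. A fit with stage as a block was not run. Scaling without NLRP3KO day 6 moved 0 medians by more than that half-width. Depth limits all Th2 values, most of all NLRP3KO day 6, where 3 fragments on a member gave 6.33 to 16.6 FPKM.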
